A study of Mus musculus with 24 samples.

Results

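The immediate early genes described here are Fos, Fosb, Fosl2, Jun, Junb, Egr1, Egr2, Egr3, Nr4a1 and Arc, 10 of the 25135 genes in the expression tables. They were taken by their gene symbols from the tables of both ages, and each was found once at each age. A mean of at least 1 FPKM (a library's mapped fragments for a gene, scaled by transcript length and by all its mapped fragments) over the libraries of an age was required for testing across genes. At P30 all 10 members passed this filter, and at P1 9 did, since Fosb was below it.

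RNA was sequenced from cortical nuclei of mice aged 1 day (P1) or 30 days (P30), with 6 WT and 6 Kdm6b-cKO libraries at each age, 24 in all. WT mice were Kdm6b wt/wt and conditional knockouts were Emx1-Cre; Kdm6b f/f littermates, both on a congenic C57BL/6 background with the SUN1-GFP reporter, and GFP+ nuclei were sorted before RNA extraction. Emx1-Cre acts in progenitors of the dorsal telencephalon, whose progeny include cortical glutamatergic neurons, astrocytes and part of the oligodendrocytes. Each value averages over all nuclei in a library and covers nuclear RNA only. The labels do not say whether a library came from 1 animal, and p-values therefore measure the spread between libraries. In the tables the 6 libraries of a group are numbered from 0 to 5. The markers of the sorted lineage were present at both ages. The summed level of 10 glutamatergic neuron markers was 462 to 718 FPKM in WT and 557 to 988 FPKM in Kdm6b-cKO at P1. At P30 it was 236 to 368 FPKM in WT and 171 to 445 FPKM in Kdm6b-cKO. Markers of cell types not named above were present too. The sum of 10 GABAergic neuron markers was 648 to 1411 FPKM in WT and 880 to 2761 FPKM in Kdm6b-cKO at P1. At P30 it was 41.5 to 527 FPKM in WT and 196 to 374 FPKM in Kdm6b-cKO. The sum of 10 endothelial and mural markers at P1 was 133 to 257 FPKM in WT and 75.4 to 252 FPKM in Kdm6b-cKO.

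Immediate early genes are transcribed within minutes of a stimulus, without new protein synthesis, because the factors that switch them on (CREB, the serum response factor with its ternary complex partners, and MEF2) are already in the nucleus. In neurons, synaptic activity and calcium entry induce them, and their RNAs are short-lived, so that their levels follow recent activity and also the handling of the tissue. Fos and Jun proteins pair to form the AP-1 transcription factor, the Egr proteins and NR4A1 are transcription factors of the zinc finger and nuclear receptor classes, and Arc acts at synapses rather than on DNA. KDM6B removes the repressive methyl groups of histone H3 lysine 27, and the comparison of genotypes asks which transcripts of the Emx1 lineage differ without it.

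Promoter windows of a few members are shown for a motif through which calcium and cAMP signals are known to act. RefSeq windows of build GRCm38.p6 were matched for 7 of the 10 members, each running from 250 bases before to 50 bases after a transcription start, and none was matched for Egr1, Egr3 and Arc. Capitals mark TGACG, the core of the cAMP response element bound by CREB, on either strand (CGTCA is the same motif on the other strand). The windows below are those of Fos and Junb, whose levels moved together across the P30 libraries, of Fosb, whose correlation with neither passed the threshold there, and of Nr4a1, which held the most copies of the motif. They are at chr12:85473640-85473939 (plus strand) for Fos, chr8:84978699-84978998 (minus strand) for Junb, chr7:19309996-19310295 (minus strand) for Fosb and chr15:101266596-101266895 (plus strand) for Nr4a1.
Fos: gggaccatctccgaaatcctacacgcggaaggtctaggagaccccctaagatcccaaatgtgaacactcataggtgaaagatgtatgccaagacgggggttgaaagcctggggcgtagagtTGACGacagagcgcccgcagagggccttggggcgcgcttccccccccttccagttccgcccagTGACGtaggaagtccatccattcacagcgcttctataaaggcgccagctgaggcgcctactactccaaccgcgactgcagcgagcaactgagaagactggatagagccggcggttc
Junb: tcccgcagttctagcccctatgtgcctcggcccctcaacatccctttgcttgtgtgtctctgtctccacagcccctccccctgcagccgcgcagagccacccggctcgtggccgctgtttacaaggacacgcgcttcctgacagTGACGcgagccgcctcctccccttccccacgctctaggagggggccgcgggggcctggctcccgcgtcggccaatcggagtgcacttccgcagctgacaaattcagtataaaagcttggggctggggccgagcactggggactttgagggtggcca
Fosb: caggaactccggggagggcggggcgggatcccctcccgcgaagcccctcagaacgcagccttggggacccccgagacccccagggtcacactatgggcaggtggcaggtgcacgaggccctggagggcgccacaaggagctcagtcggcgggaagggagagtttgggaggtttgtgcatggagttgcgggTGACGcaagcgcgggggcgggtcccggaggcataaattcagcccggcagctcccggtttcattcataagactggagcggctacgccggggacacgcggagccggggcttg
Nr4a1: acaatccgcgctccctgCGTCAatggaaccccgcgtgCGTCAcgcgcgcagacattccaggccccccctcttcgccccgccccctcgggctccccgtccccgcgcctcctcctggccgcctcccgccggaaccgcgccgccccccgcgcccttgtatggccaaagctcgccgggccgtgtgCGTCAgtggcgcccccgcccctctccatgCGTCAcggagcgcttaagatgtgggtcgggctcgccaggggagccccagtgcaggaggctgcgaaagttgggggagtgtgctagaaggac
The Fos window held 2 copies of TGACG, the Junb and Fosb windows 1 each, and the Nr4a1 window 4, all 4 in the reverse orientation. Of the 5 annotated Egr2 windows, 3 held 2 copies each. These 3 windows overlap and hold the same 2 sites. In all, 5 of the 7 matched members had the motif in at least 1 window. None was found in the windows of Jun and Fosl2. At least 1 copy was found in 20.8% of the 32851 mouse promoter windows of the same length, which is a share of windows and not of genes. The full palindrome TGACGTCA, which stands in 1.79% of all windows, was in none of the windows matched to the members. A CArG box, the serum response factor motif, was in 4 of the Egr2 windows and in no other window matched to the members. The 3 overlapping windows among these 4 hold the same CArG box. It stands in 1.63% of all windows.

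In mm9, the build of the expression tables, Fos is at chr12:86814840-86818224, Fosb at chr7:19888045-19895394, Fosl2 at chr5:32438845-32460212, Jun at chr4:94715727-94718913 and Junb at chr8:87500808-87502647. Egr1 is at chr18:35020861-35024610, Egr2 at chr10:66998247-67004936, Egr3 at chr14:70477124-70482420, Nr4a1 at chr15:101097277-101105225 and Arc at chr15:74499511-74503000. Jun and Junb are single-exon genes, and the longest transcript of Nr4a1 has the most exons among the members, 7. Each value covers the whole gene model.

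Depth set what could be seen of these transcripts, above all at P1. Since the lowest FPKM values are whole multiples of 1 read, the tables gave an effective depth of 820000 to 3910000 reads in WT and 192000 to 2854000 reads in Kdm6b-cKO at P1, and of 5116000 to 8267000 and 1938000 to 8055000 reads at P30. Kdm6b-cKO libraries 0 and 5 were the shallowest at P1, with 342000 and 192000 reads. Further differences ran alongside the genotypes. At P1, 397 to 794 olfactory receptor genes were above 0 in 5 libraries (4 WT, and Kdm6b-cKO library 5), against 2 to 22 in the other 7. At P30, 45S ribosomal RNA was over 1000 FPKM in 8 libraries (5 WT, and Kdm6b-cKO libraries 2, 3 and 4) and 175 to 450 FPKM in the other 4, and those 3 Kdm6b-cKO libraries also had the lowest depth at that age, 1938000 to 2661000 reads. The summed level of 10 oligodendrocyte lineage markers was 251 to 458 FPKM in WT and 136 to 183 FPKM in Kdm6b-cKO at P30, and 8 of the 8 GABAergic neuron markers tested there had fold changes above 0 with a median log2 fold change of 1.56. The part of these differences in the results below was not tested except where a value is given. Kdm6b itself was measured over its whole gene model and not over the floxed exons alone. It was 24.9 to 51.0 FPKM in WT and 15.0 to 38.4 FPKM in Kdm6b-cKO at P1. At P30 it was 16.9 to 26.4 FPKM and 17.5 to 28.1 FPKM, so that it did not separate the genotypes at either age. The authors measured Kdm6b by qRT-PCR in sorted GFP+ nuclei and reported that little of the transcript remained in the knockouts.

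At P1 the members were low in several Kdm6b-cKO libraries, with Egr1 as the clearest case, but none passed the test across genes. All 9 members tested had log2 fold changes below 0, where 63.2% of all 16250 genes tested did. Their median log2 fold change was -1.37, against -0.25 for the tested genes as a whole. Both medians depended on the settings. They were -0.64 and -0.098 with 1 in place of 0.1 added to FPKM, and -0.80 and -0.029 with receptor signal as a term in the fit. Without Kdm6b-cKO library 0 they were -0.97 and -0.16. At a filter of 5 FPKM they were -1.59, for the 4 members left, and -0.047. Jun and Fosl2, at -0.13 and -0.061, had a higher mean FPKM in Kdm6b-cKO than in WT. Markers of other cell types also had medians under that of all genes: the median log2 fold change was -0.74 for oligodendrocyte lineage markers (8 of 9 tested below 0, summed level 51.4 to 82.4 FPKM in WT and 31.4 to 57.7 FPKM in Kdm6b-cKO). It was -0.66 for astrocyte markers (8 of 10 below 0, sums of 199 to 300.1 and 116 to 356 FPKM) and -0.63 for microglia markers (7 of 9 below 0, sums of 59.4 to 124 and 39.9 to 126 FPKM). None of these markers was called, and their part in the members' values was not tested. A gene was called where limma gave an adjusted p under 0.05 (Benjamini-Hochberg over every tested gene) and the fold exceeded 2. By this rule 0 members and 0 genes in all were called at P1, a background of 0% in each direction, and the smallest adjusted p of any gene was 0.16. At an unadjusted p under 0.05, 3 members were lower (Egr1, Arc and Nr4a1), where 7.77% of all genes tested were lower, and 0 members were higher, where 6.7% of all genes were. In bulk nuclei, fewer cells that express a gene and less RNA per cell cannot be told apart.

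**Figure D1:**
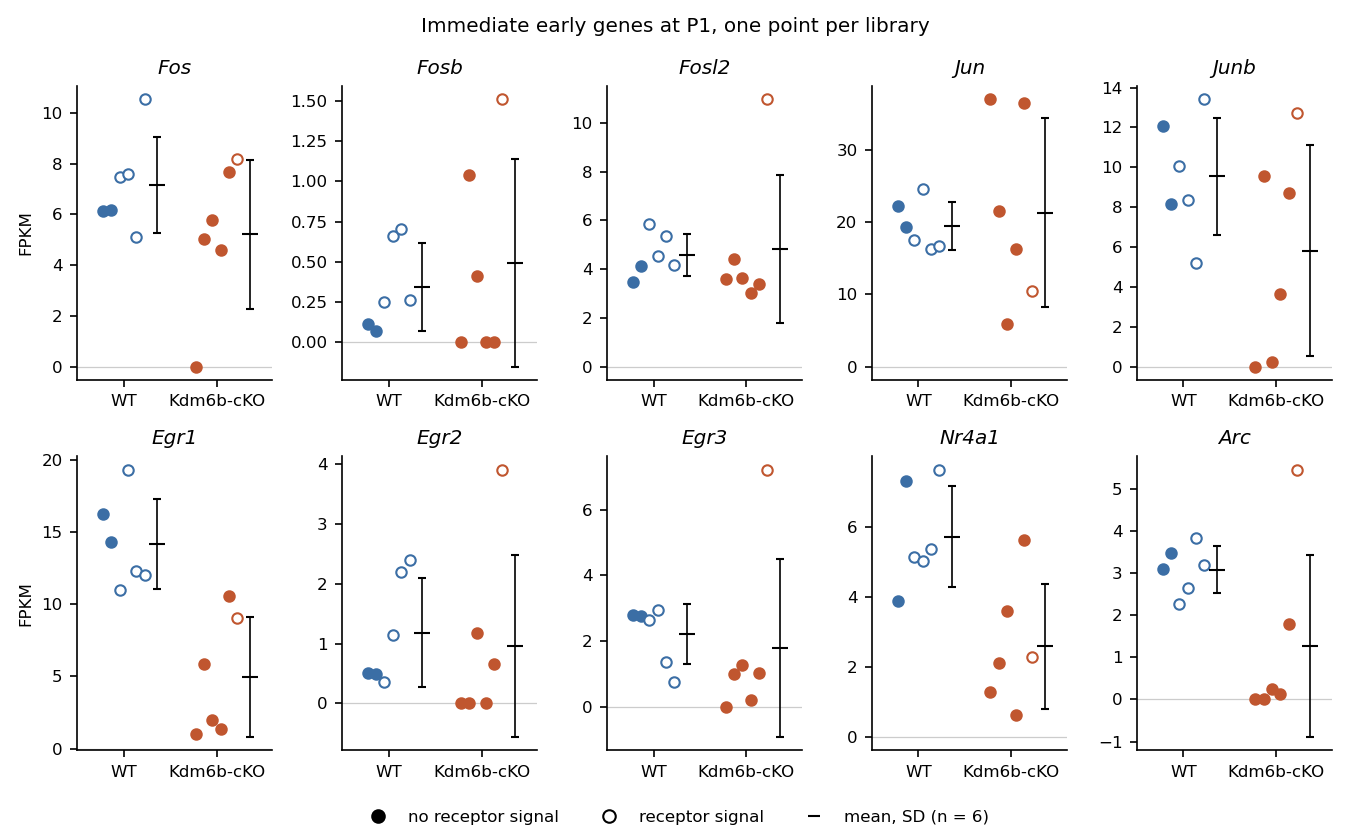
FPKM of each member in the 12 P1 libraries, 1 point per library, with the mean and SD of each genotype (n = 6) as a bar; filled points are libraries without olfactory receptor signal and open points those with it. Egr1 is the member whose 6 Kdm6b-cKO points, 1.01 to 10.5 FPKM, all lie under the 6 WT points, 11.0 to 19.3 FPKM.

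Egr1 encodes a zinc finger factor that is among the most widely used markers of neuronal activity. Its lowest, median and highest values at P1 were 11.0, 13.3 and 19.3 FPKM in WT and 1.01, 3.90 and 10.5 FPKM in Kdm6b-cKO. The groups did not overlap, which held for 0.683% of all genes in this direction, although Kdm6b-cKO library 4 at 10.5 FPKM was close to the lowest WT library at 11.0 FPKM. The log2 fold change was -1.99 ± 0.54 (SE), with a limma adjusted p of 0.182. The exact two-sided permutation test gave p = 0.00216, the smallest value that the 924 splits of 12 libraries into 6 and 6 can give. In reads, WT libraries 0 to 5 held 116, 161, 73, 73, 29 and 38 of Egr1, and Kdm6b-cKO libraries 0 to 5 held 1, 14, 16, 11, 83 and 5. Within the 7 libraries without receptor signal (2 WT, 5 Kdm6b-cKO) the log2 difference was -2.40 (exact permutation p = 0.0952), and within the 5 with it (4 WT, 1 Kdm6b-cKO) it was -0.55.

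Arc, which encodes a synaptic protein whose mRNA travels to active dendrites, had the largest fold change of the members at P1. Its lowest, median and highest values were 2.26, 3.14 and 3.83 FPKM in WT and 0, 0.185 and 5.45 FPKM in Kdm6b-cKO. The WT libraries lay close together, while 5 Kdm6b-cKO libraries were under the lowest of them and the sixth, library 5, was above the highest. The values rest on few reads: 22, 39, 15, 10, 9 and 10 in WT libraries 0 to 5 and 0, 0, 2, 1, 14 and 3 in the Kdm6b-cKO libraries. The highest Kdm6b-cKO value, 5.45 FPKM in library 5, stood for 3 reads. Arc was listed at 0 in Kdm6b-cKO libraries 0 and 1, whose depths would put 3 reads at 3.06 and 1.25 FPKM. The log2 fold change was -2.81 ± 0.93 (SE), with a limma adjusted p of 0.211 and an exact permutation p of 0.0325. The direction differed between the libraries without and with receptor signal. The log2 difference was -3.64 without it (exact permutation p = 0.0476, the smallest that 2 against 5 libraries allow). It was 0.88 with it, where the 1 Kdm6b-cKO library was the one with 3 reads.

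Nr4a1, an orphan nuclear receptor induced by calcium and stress signals, was the third of these. Its lowest, median and highest values were 3.89, 5.24 and 7.62 FPKM in WT and 0.616, 2.20 and 5.61 FPKM in Kdm6b-cKO. The groups overlapped through Kdm6b-cKO library 4 at 5.61 FPKM, and the other 5 Kdm6b-cKO libraries were under every WT library. The log2 fold change was -1.37 ± 0.49 (SE), with a limma adjusted p of 0.231 and an exact permutation p of 0.0152. The log2 difference was -1.34 in the libraries without receptor signal. It was -1.28 in those with it, where the 1 Kdm6b-cKO library held 1 read of Nr4a1.

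No AP-1 member passed the test at P1. Fos, which binds DNA as a dimer with a Jun family protein, spanned 5.11 to 10.5 FPKM across WT libraries (median 6.83) and 0 to 8.20 FPKM across Kdm6b-cKO libraries (median 5.41). Its log2 fold change of -1.18 ± 0.87 (SE) rested largely on Kdm6b-cKO library 0, where Fos was listed at 0 and 3 reads would have been 4.60 FPKM. Without that library it was -0.19, and the limma adjusted p was 0.544 with it. Junb, a Jun family member, spanned 5.22 to 13.4 FPKM across WT libraries (median 9.21) and 0 to 12.7 FPKM across Kdm6b-cKO libraries (median 6.18). Its log2 fold change was -2.04 ± 1.03 (SE; limma adjusted p = 0.381, exact permutation p = 0.141). It was -1.14 without Kdm6b-cKO library 0, and -2.54 without Kdm6b-cKO library 5 (limma adjusted p = 0.179, exact permutation p = 0.0303). Kdm6b-cKO libraries 0 and 2, at 0 and 0.218 FPKM, stood for 0 and 1 reads. The other Junb values in Kdm6b-cKO, 3.65 to 12.7 FPKM, lay mostly within the WT range.

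Jun, whose protein can also pair with itself, was the member with the highest median at P1. It spanned 16.3 to 24.6 FPKM across WT libraries (median 18.5) and 5.94 to 37.0 FPKM across Kdm6b-cKO libraries (median 18.9). The Kdm6b-cKO libraries thus lay on both sides of the WT range, and the log2 fold change was -0.13 ± 0.40 (SE; limma adjusted p = 0.897). Fosl2, a Fos family member with slower kinetics, spanned 3.46 to 5.84 FPKM across WT libraries (median 4.35) and 3.01 to 11.0 FPKM across Kdm6b-cKO libraries (median 3.60). The highest Fosl2 value, in Kdm6b-cKO library 5, stood for 12 reads, and the log2 fold change was -0.061 ± 0.38 (SE; limma adjusted p = 0.953). Fosb, which gives rise to the stable product ΔFosB by splicing, was at 0.0741 to 0.706 FPKM in WT and 0 to 1.51 FPKM in Kdm6b-cKO. These were 0 to 4 reads per library, and the difference was not detectable at this depth (exact permutation p = 0.740).

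Egr2 and Egr3, zinc finger factors related to Egr1, were scarce at P1. Egr3 spanned 0.758 to 2.95 FPKM across WT libraries (median 2.70) and 0 to 7.21 FPKM across Kdm6b-cKO libraries (median 1.00), with a log2 fold change of -1.31 ± 0.88 (SE; limma adjusted p = 0.507, exact permutation p = 0.186). Its highest Kdm6b-cKO value, in library 5, stood for 5 reads, and without that library the exact permutation p was 0.0216. The log2 difference was -2.39 in the libraries without receptor signal (exact permutation p = 0.0952) and 2.03 in those with it, so the direction differed. Egr2 spanned 0.359 to 2.39 FPKM across WT libraries and 0 to 3.90 FPKM across Kdm6b-cKO libraries, where it was listed at 0 in libraries 0, 1 and 3. Its log2 fold change was -1.37 ± 1.05 (SE; limma adjusted p = 0.557). Kdm6b-cKO library 0, with 342000 reads, had 6 members listed at 0 in all (Fos, Fosb, Junb, Egr2, Egr3 and Arc).

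The weighting of the P1 libraries moved these results. With libraries weighted by effective depth, 2 members were called lower, Egr1 (adjusted p = 0.0388) and Arc (adjusted p = 0.0391), beside 1.29% of all genes called lower in that fit. Without the 2 libraries under 500000 reads, 0 of 8 members tested and 0% of 14602 genes were called lower. There Arc had a log2 fold change of -3.18 (limma unadjusted p = 0.00055, adjusted p = 0.103) and Egr1 of -1.92 (limma unadjusted p = 0.00111, adjusted p = 0.103).

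Other genes of the response programme had a median near that of all genes at P1. Of 34 other rapid response genes, 32 were tested, 20 with a log2 fold change below 0 and 12 above, and their median of -0.24 was close to the -0.25 of all genes. None was called. Nr4a2, a close relative of Nr4a1, was 23.2 to 37.4 FPKM in WT and 4.66 to 20.3 FPKM in Kdm6b-cKO, so that the groups did not overlap (log2 fold change -1.32, limma adjusted p = 0.178). Ier5, a rapid response gene also tied to heat shock, separated in the opposite direction, with 6.04 to 14.6 FPKM in WT and 15.4 to 23.0 FPKM in Kdm6b-cKO (log2 fold change 1.08, limma adjusted p = 0.18). Amigo3 and Btg2, an antiproliferative early gene, had log2 fold changes of -2.36 and -1.86 (limma adjusted p = 0.263 and 0.292). Of the 20 delayed activity-regulated genes, 18 were tested and none was called, with a median of -0.25. The 4 with the smallest p were Baz1a (1.19), Plk3 (-0.90), Gpr3 (-1.73) and Bdnf (-1.06), the last encoding a growth factor that acts on synapses, with limma adjusted p values of 0.468 or less and none under 0.05.

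Among 26 upstream regulators, all tested, 23 had log2 fold changes below 0 with a median of -0.50, and none was called. Both groups were apart for Mef2c, a calcium-responsive factor of cortical neurons, with 115 to 170 FPKM in WT and 54.4 to 93.1 FPKM in Kdm6b-cKO (log2 fold change -1.01, limma adjusted p = 0.160). They were apart too for its relative Mef2d, with 13.3 to 14.1 FPKM and 4.17 to 10.7 FPKM (log2 fold change -0.77, limma adjusted p = 0.224). Grin1, the obligate NMDA receptor subunit, and Mapk3, the kinase ERK1, had log2 fold changes of -0.90 and -0.84 with overlapping groups (limma adjusted p = 0.292 and 0.331). Of 13 heat shock genes, which report stress of the tissue, 12 were tested, 6 in each direction, with a median of 0.018. Hspe1 and Hsp90aa1, both chaperone genes, had log2 fold changes of 0.88 and 0.69 (limma adjusted p = 0.191 and 0.222), and Hspa4l and Dnajb1 of -0.65 and -0.67 (limma adjusted p = 0.477 and 0.521).

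At P30 the members showed no common direction between genotypes, and what stood out was how far they spread within each genotype. Log2 fold changes were below 0 for 4 members and above 0 for 6, with a median of 0.073, against -0.047 over all 13289 genes tested and 54.8% of them below 0. No member was called by limma, beside 0.226% of all genes called lower and 0.0527% called higher, and none had an unadjusted p under 0.05, where 7.37% of all genes were lower and 5.34% higher at that threshold. The tables of the ages were normalized separately, and levels are therefore not compared between ages.

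**Figure D2:**
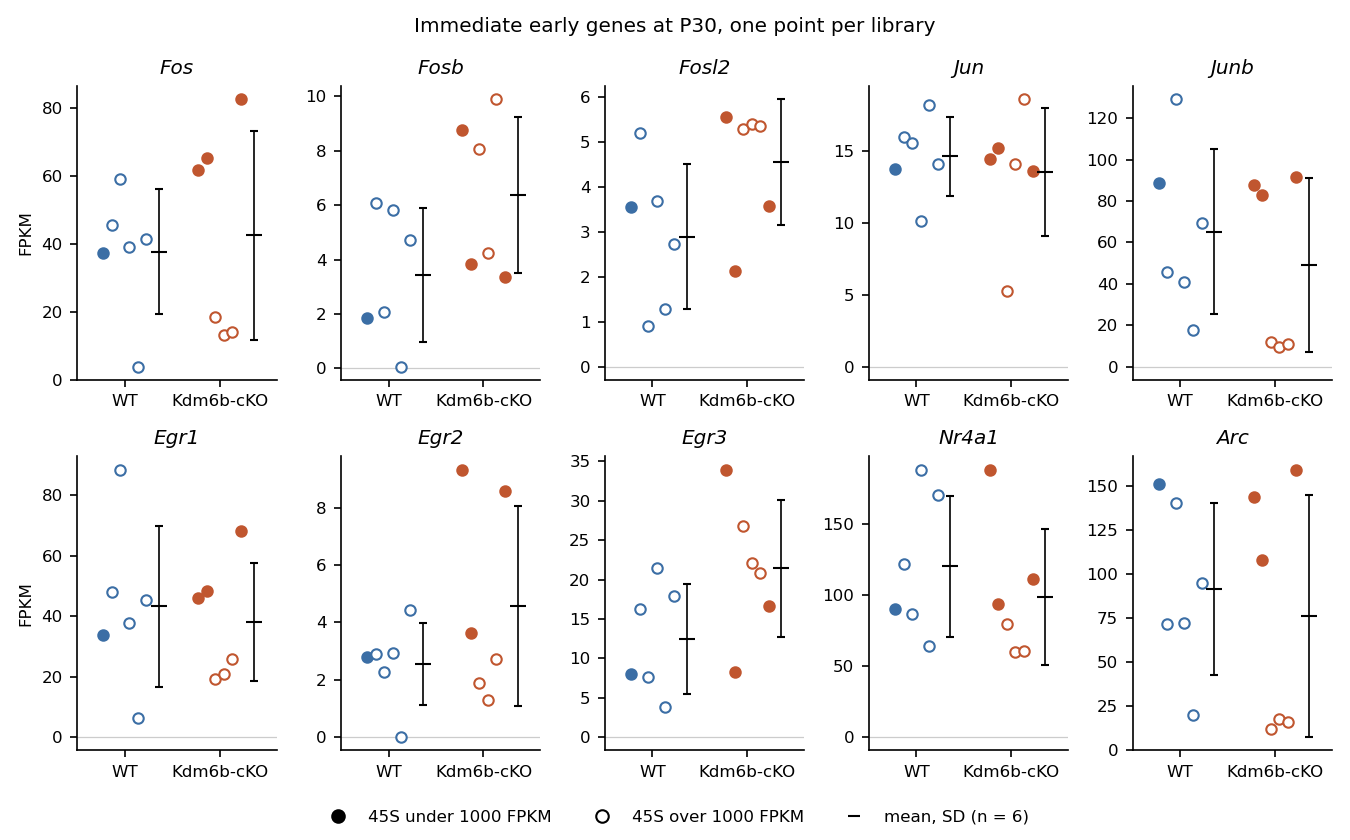
FPKM of each member in the 12 P30 libraries, 1 point per library, with the mean and SD of each genotype (n = 6) as a bar; filled points are libraries with 45S ribosomal RNA under 1000 FPKM and open points those over it. For Fos, Junb, Egr1, Nr4a1 and Arc the Kdm6b-cKO points fall into an upper group of 3 filled points and a lower group of 3 open points, with Junb at 82.8 to 91.5 and 9.36 to 11.9 FPKM.

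Among the AP-1 members at P30, Junb and Fos spread the most in absolute level. Fos was 37.1, 45.4, 59.1, 38.9, 3.84 and 41.2 FPKM in WT libraries 0 to 5 and 61.7, 65.1, 18.5, 13.1, 14.0 and 82.4 FPKM in Kdm6b-cKO libraries 0 to 5. The medians were the same to 3 digits, 40.1 FPKM in both genotypes, and the log2 fold change was 0.14 ± 0.67 (SE; limma adjusted p = 0.954). Kdm6b-cKO libraries 0, 1 and 5 were above every WT library, and Kdm6b-cKO libraries 2, 3 and 4 were under every WT library but library 4. Junb was 88.7, 45.8, 129, 40.8, 17.6 and 69.5 FPKM in WT libraries 0 to 5 and 87.6, 82.8, 11.9, 9.36, 11.0 and 91.5 FPKM in the Kdm6b-cKO libraries. The same 3 Kdm6b-cKO libraries were again low, here under every WT library, and the log2 fold change was -0.83 ± 0.69 (SE; limma adjusted p = 0.663).

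Fosb, Fosl2 and Jun did not follow that split. Fosb spanned 0.0698 to 6.08 FPKM across WT libraries (median 3.39) and 3.35 to 9.89 FPKM across Kdm6b-cKO libraries (median 6.15), with a log2 fold change of 1.40 ± 0.74 (SE; limma adjusted p = 0.464, exact permutation p = 0.0887). Fosl2 spanned 0.906 to 5.21 FPKM across WT libraries (median 3.13) and 2.12 to 5.54 FPKM across Kdm6b-cKO libraries (median 5.32), with a log2 fold change of 0.78 ± 0.41 (SE; limma adjusted p = 0.457, exact permutation p = 0.104). Kdm6b-cKO library 4 had the highest Fosb value of the 12, and Kdm6b-cKO libraries 2, 3 and 4 were all above every WT library for Fosl2, at 5.29 to 5.40 FPKM. Jun varied least in this family, 10.1 to 18.2 FPKM across WT libraries (median 14.9) and 5.27 to 18.6 FPKM across Kdm6b-cKO libraries (median 14.3), with a log2 fold change of -0.18 ± 0.27 (SE; limma adjusted p = 0.824).

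The Egr genes divided in the same way. Egr1 was 33.8, 47.9, 88.4, 37.8, 6.18 and 45.2 FPKM in WT libraries 0 to 5 and 46.1, 48.3, 19.1, 20.8, 25.8 and 68.1 FPKM in Kdm6b-cKO libraries 0 to 5. Its log2 fold change was 0.0045 ± 0.53 (SE; limma adjusted p = 0.997), and the groups overlapped over most of their range. Egr3 spanned 3.76 to 21.4 FPKM across WT libraries (median 12.2) and 8.29 to 33.9 FPKM across Kdm6b-cKO libraries (median 21.5), with a log2 fold change of 0.88 ± 0.43 (SE; limma adjusted p = 0.415, exact permutation p = 0.0866). Egr2 was low, 0 to 4.42 FPKM in WT (median 2.85) and 1.28 to 9.32 FPKM in Kdm6b-cKO (median 3.18), with a log2 fold change of 1.06 ± 0.84 (SE; limma adjusted p = 0.643). It was listed at 0 in WT library 4, where 3 reads would have been 0.0707 FPKM, and without that library its log2 fold change was 0.24 and that of Fosb 0.65.

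Nr4a1 and Arc were the members with the highest mean FPKM, a level per length, at P30. Nr4a1 spanned 63.9 to 188 FPKM across WT libraries (median 106) and 59.9 to 188 FPKM across Kdm6b-cKO libraries (median 86.6), with a log2 fold change of -0.30 ± 0.32 (SE; limma adjusted p = 0.754). Arc was 151, 71.8, 140, 72.4, 19.8 and 94.7 FPKM in WT libraries 0 to 5 and 144, 108, 11.9, 18.0, 16.2 and 159 FPKM in Kdm6b-cKO libraries 0 to 5. As with Junb, Kdm6b-cKO libraries 2, 3 and 4 were under every WT library, and the log2 fold change was -0.76 ± 0.72 (SE; limma adjusted p = 0.711).

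The 3 low Kdm6b-cKO libraries at P30 were those with high 45S ribosomal RNA and low depth, and the comparison was repeated within the libraries on either side of 1000 FPKM of 45S. This did not make the genotypes alike: on the high side, 45S was 1629 to 4027 FPKM in WT and 3034, 15420 and 25878 FPKM in Kdm6b-cKO libraries 2, 3 and 4, and depth was 5116000 to 8267000 against 1938000 to 2661000 reads, without overlap. Genotype and depth therefore cannot be told apart on that side. Within the 8 libraries over 1000 FPKM of 45S (5 WT, 3 Kdm6b-cKO), Junb was 17.6 to 129 FPKM in WT and 9.36 to 11.9 FPKM in Kdm6b-cKO, a log2 difference of -2.20 (exact permutation p = 0.0357). Arc was 19.8 to 140 FPKM and 11.9 to 18.0 FPKM, a log2 difference of -2.14 (exact permutation p = 0.0536). Limma in these 8 libraries called 2 members lower, Junb (adjusted p = 0.0258) and Arc (adjusted p = 0.0285), where 3.82% of all genes were called lower. With the 45S group as a term in the fit of all 12 libraries, the same 2 members were called, Junb at -1.58 (adjusted p = 0.0454) and Arc at -1.58 (adjusted p = 0.0442), beside 2.75% of all genes called lower. Within the 4 libraries under 1000 FPKM (1 WT, 3 Kdm6b-cKO) the log2 differences were -0.024 for Junb and -0.16 for Arc.

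The other members in the 8 libraries over 1000 FPKM of 45S had log2 differences of -0.89 for Fos, -0.64 for Egr1, -0.82 for Nr4a1 and -0.38 for Jun. The differences were 1.62 for Fosb, 1.18 for Fosl2, 1.03 for Egr3 and 0.33 for Egr2. Fosl2 had the smallest exact permutation p of these other members, 0.0714. Among the 6 Kdm6b-cKO libraries alone, the mean log2 level in libraries 2, 3 and 4 less that in libraries 0, 1 and 5 was -3.15 for Arc, -3.01 for Junb, -2.20 for Fos, -1.77 for Egr2, -1.29 for Egr1 and -0.92 for Nr4a1. It was -0.37 for Jun, whose values in these sets of libraries overlapped, 0.52 for Fosb, 0.60 for Fosl2 and 0.46 for Egr3. The spread inside the knockout group was therefore larger than the difference between genotypes for Arc, Junb, Fos, Jun, Egr1, Egr2 and Nr4a1. High 45S and low depth marked the same 3 Kdm6b-cKO libraries and cannot be told apart here. Glutamatergic neuron markers split the 6 libraries in the same way. Their summed level was 340 to 445 FPKM in libraries 2, 3 and 4 and 171 to 196 FPKM in libraries 0, 1 and 5. The sums of GABAergic neuron markers overlapped, at 196 to 329 FPKM and 286 to 374 FPKM in the same order. For the upstream regulators the sums were 911 to 1262 FPKM and 619 to 652 FPKM. The glutamatergic and upstream regulator sums were thus high in the libraries where Arc, Junb and Fos were low. Other rapid response genes and delayed activity-regulated genes were low there too. Their sums were 318 to 353 FPKM and 181 to 203 FPKM in libraries 2, 3 and 4. In libraries 0, 1 and 5 they were 408 to 529 FPKM and 302 to 377 FPKM. The part of any of these lists in the members' split was not tested.

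**Figure D3:**
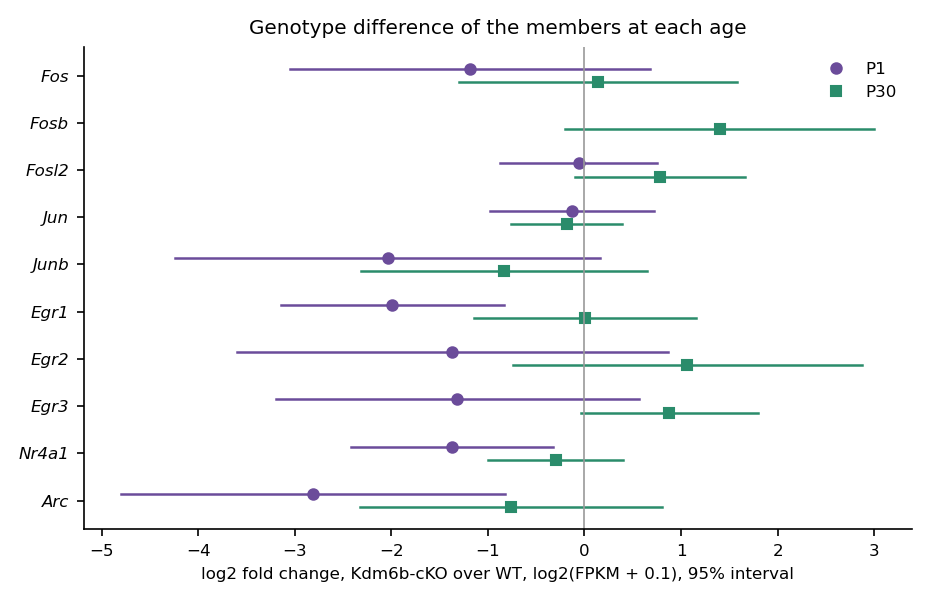
Log2 fold change of each member, Kdm6b-cKO over WT, on the scale of log2(FPKM + 0.1), at P1 (circles) and P30 (squares), with lines for the 95% interval from limma (6 libraries per genotype and age). The P1 intervals of Egr1, Nr4a1 and Arc lie below 0 before adjustment over genes, the P30 intervals all include 0, and Fosb has no P1 point because it was under the filter.

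Whether the genotype difference itself changed with age was tested by an interaction term over the 24 libraries, for the 12644 genes that passed the filter at both ages. No member passed at an adjusted p under 0.05, and 0.00791% of all genes passed with a positive interaction (1 gene) and 0% with a negative one. The difference (P30 effect less P1 effect) was 2.00 ± 0.79 (SE) for Egr1, with an unadjusted limma p of 0.0181 and an adjusted p of 0.278. For Egr3 it was 2.19 ± 0.97 (SE), with an unadjusted limma p of 0.0326 and an adjusted p of 0.335. Arc, at 2.05 ± 1.18 (SE), and Egr2, at 2.43 ± 1.35 (SE), had wider errors (limma adjusted p = 0.468 and 0.454). The interaction was above 0 for 8 of the 9 members tested and -0.053 for Jun.

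In the wider programme at P30, 1 gene was called, Nrn1. Of 34 other rapid response genes, 28 were tested, 18 below 0 and 10 above, with a median of -0.16 and none called; Fosl1 was listed at 0 in every library. The smallest p values were those of the phosphatase gene Dusp5 (log2 fold change -0.72), Ier5 (-0.97), Csrnp1 (-0.78) and the clock gene Per1 (-0.31), with limma adjusted p values from 0.376 to 0.496. Of the 20 delayed activity-regulated genes, all tested, Nrn1 was called. Nrn1, which encodes neuritin, a neurite growth factor, was 49.2 to 78.6 FPKM in WT and 20.7 to 38.2 FPKM in Kdm6b-cKO (log2 fold change -1.03 ± 0.17, SE; limma adjusted p = 0.0226). Plk3, a stress-responsive kinase gene, passed the p threshold but not the 2-fold one, with 16.9 to 25.1 FPKM in WT and 11.3 to 13.8 FPKM in Kdm6b-cKO (log2 fold change -0.73 ± 0.14, SE; limma adjusted p = 0.0427). Rasl11b and Gpr3 were at -0.55 and -0.63 (limma adjusted p = 0.389 and 0.455). The median of the list was -0.061.

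Of the 26 upstream regulators at P30, 15 were below 0 and 11 above, with a median of -0.11 and none called. Mef2d was at 24.8 to 33.8 FPKM in WT and 11.7 to 27.0 FPKM in Kdm6b-cKO (log2 fold change -0.71, limma adjusted p = 0.146). Nab1, a corepressor of EGR proteins, was at 0.67, Creb1 at 0.42 and Mapk3 at -0.35 (limma adjusted p = 0.315, 0.391 and 0.431). All 9 heat shock genes tested had fold changes above 0, with a median of 0.32 and none called. Dnajb1, a cochaperone gene, was 4.11 to 9.94 FPKM in WT and 10.1 to 16.2 FPKM in Kdm6b-cKO, without overlap (log2 fold change 0.94, limma adjusted p = 0.0922). Hsp90aa1, Hsph1 and Hspd1 were at 0.48, 0.44 and 0.32 (limma adjusted p = 0.393, 0.422 and 0.623). The summed level of the 13 heat shock genes was 147 to 226 FPKM in WT and 213 to 354 FPKM in Kdm6b-cKO, and WT library 4, the library with the lowest Fos, also had the lowest sum.

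Covariation was measured across single libraries after the mean of each genotype was subtracted from log2(FPKM + 0.1), with permutation within genotype (100000 resamples, two-sided). At P30 the median Pearson r over the 45 pairs of members was 0.56 and the median Spearman rho 0.34, against a median r of -0.0005 over all pairs of genes tested. Of the 45 pairs, 17 had an unadjusted p under 0.05 for Pearson's r, 14 passed after Benjamini-Hochberg adjustment over the pairs, and 6 passed for both r and rho. Without the 2 libraries farthest from the median of the first gene of each pair, the median r was 0.32. It was 0.61 within WT and 0.22 within Kdm6b-cKO (6 libraries each), and 0.65 within the 8 libraries over 1000 FPKM of 45S.

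**Figure D4:**
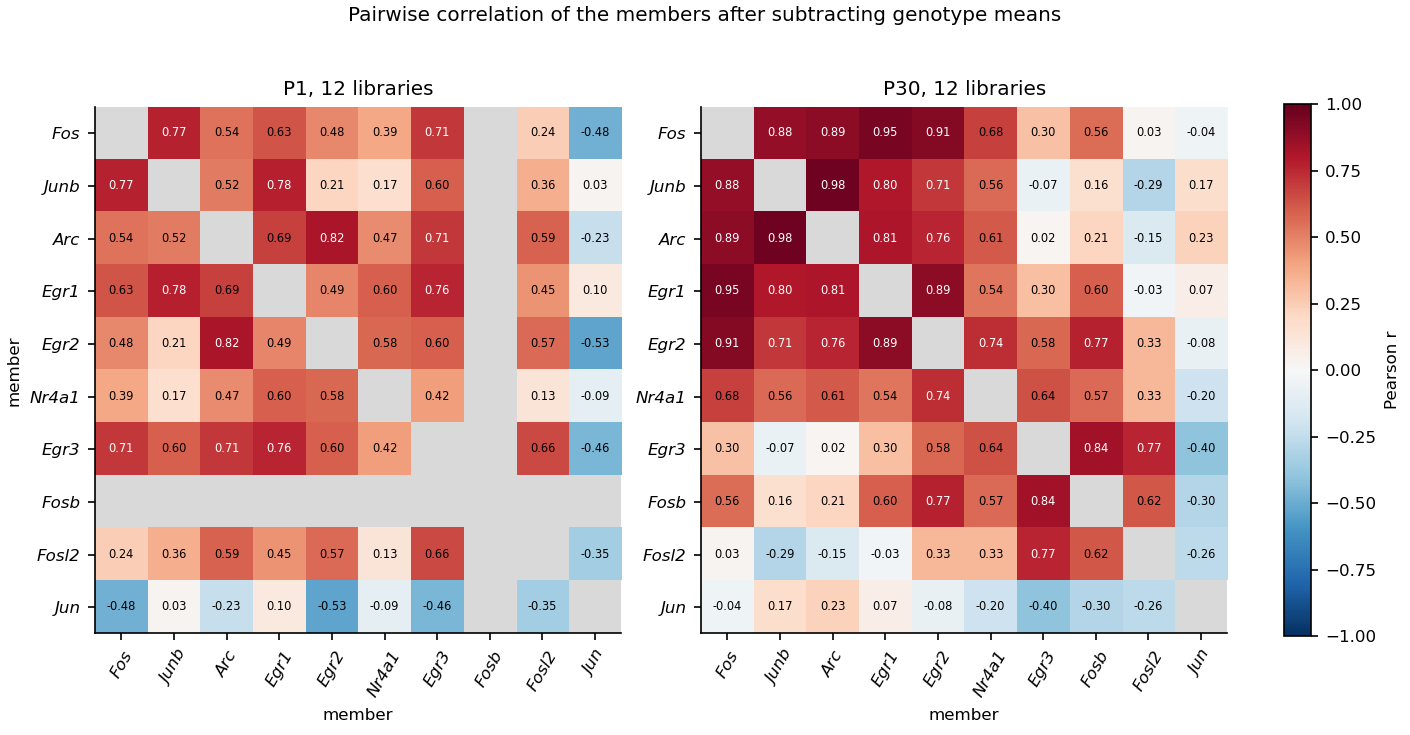
Pearson r between each pair of members across 12 libraries at P1 (left) and P30 (right), after genotype means were subtracted; red is positive, blue negative, and grey marks the diagonal and Fosb at P1. At P30 Fos, Junb, Arc, Egr1 and Egr2 form a block of r from 0.71 to 0.98, Egr3 joins Fosb and Fosl2 at 0.84 and 0.77, and Jun is near or below 0 with most members.

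The P30 pairs fell into a block of 5 members and a smaller set beside it. Junb and Arc followed each other most closely (r = 0.98, rho = 0.94, permutation p adjusted over pairs = 0.00742 for r), and r was 0.97 without the 2 farthest libraries. Fos and Egr1 had r = 0.95 and rho = 0.97 (adjusted permutation p = 0.00742), and r was 0.87 without 2 libraries. Fos and Junb had r = 0.88 and rho = 0.92 (adjusted permutation p = 0.00922), and r was 0.91 without 2 libraries. Fos and Arc had r = 0.89 and rho = 0.84 (adjusted permutation p = 0.0192 for r and 0.0504 for rho), with 0.92 without 2 libraries. Egr2 had r = 0.91 with Fos (rho = 0.66, adjusted permutation p = 0.0213 for r and 0.119 for rho) and r = 0.89 with Egr1 (rho = 0.61, adjusted permutation p = 0.0242 for r and 0.131 for rho). Without the 2 farthest libraries, one of them WT library 4 with Egr2 listed at 0, these were 0.73 and 0.63, and in the 8 libraries over 1000 FPKM of 45S neither passed (permutation p = 0.143 and 0.139). Egr2 also had r = 0.74 and rho = 0.89 with Nr4a1 (adjusted permutation p = 0.009). In the 8 libraries over 1000 FPKM of 45S alone, r was 0.86 for Fos and Junb (permutation p = 0.0109), 0.96 for Fos and Egr1 (permutation p = 0.0266) and 0.91 for Junb and Arc (permutation p = 0.0197).

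Egr3 and Fosb formed a second pair at P30, with r = 0.84 and rho = 0.80 (adjusted permutation p = 0.0111), and r was 0.80 without 2 libraries. Egr3 and Fosl2 had r = 0.77 and rho = 0.69 (adjusted permutation p = 0.0384 for r and 0.131 for rho), with 0.75 without 2 libraries. For this pair r was 0.79 in the 8 libraries over 1000 FPKM of 45S (permutation p = 0.115). Towards the block, r was 0.30 for Fos and Egr3, 0.029 for Fos and Fosl2, -0.067 for Junb and Egr3 and 0.022 for Arc and Egr3. It was higher towards Egr2 and Egr1, at 0.77 for Fosb and Egr2 (rho = 0.48), 0.58 for Egr2 and Egr3 (rho = 0.58) and 0.60 for Fosb and Egr1 (rho = 0.091). None of these 7 pairs passed the threshold over 12 libraries (adjusted permutation p = 0.160, 0.160 and 0.285 for the last 3). Within the 8 libraries over 1000 FPKM of 45S, r was 0.97 for Fosb and Egr2 (permutation p = 0.0134) and 0.86 for Egr2 and Egr3 (permutation p = 0.0355), while without the 2 farthest of the 12 libraries it was 0.22 and 0.28. Fos and Fosb had r = 0.56 (adjusted permutation p = 0.285) but rho = 0.042, and without WT library 4 and Kdm6b-cKO library 3 r was -0.37. Jun had no pair past the threshold, with r from -0.40 to 0.23.

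**Figure D5:**
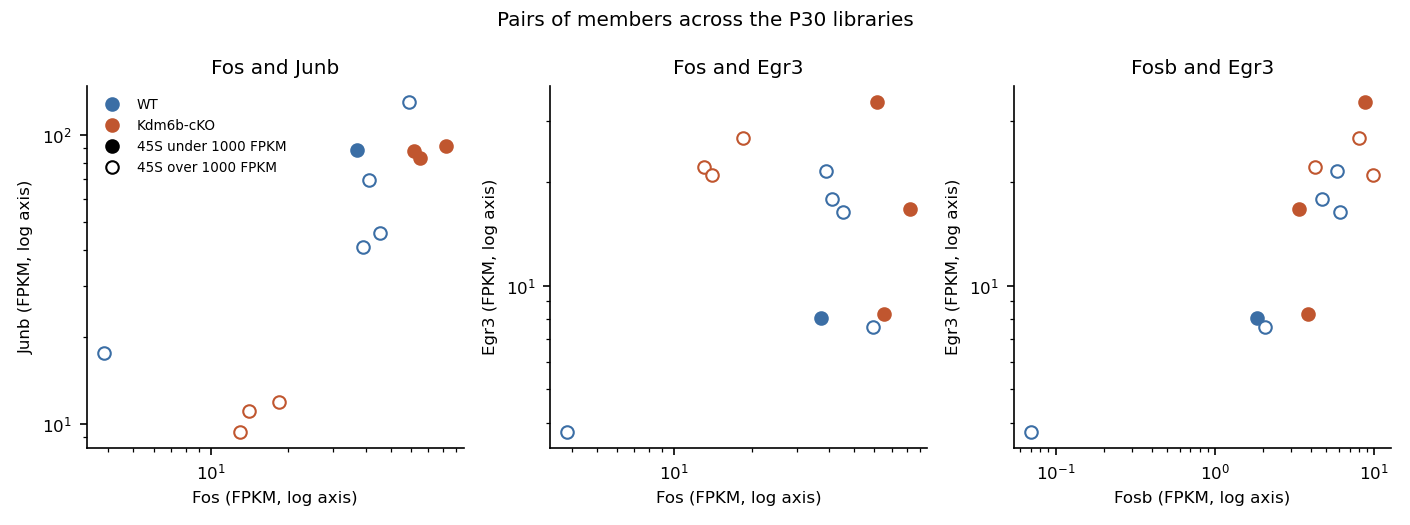
FPKM of 3 pairs of members in the 12 P30 libraries on log axes, with WT in blue and Kdm6b-cKO in orange; filled points have 45S ribosomal RNA under 1000 FPKM and open points over it. Fos and Junb rise together (r = 0.88), Fos and Egr3 do not (r = 0.30), and Fosb and Egr3 do (r = 0.84), with WT library 4 at the low end of all 3 plots.

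WT library 4 carried a good part of this pattern at P30. It was the lowest of the 12 libraries for Fos, Fosb, Egr1, Egr2 and Egr3, with Fos at 3.84 FPKM against 13.1 to 82.4 FPKM in the other 11, although its depth of 8267000 reads was the highest. Jun there was 18.2 FPKM, the highest WT value. Across the other 11 libraries, after genotype means were subtracted, r with Fos was 0.95 for Junb, 0.93 for Arc, 0.88 for Egr1, 0.80 for Egr2 and 0.58 for Nr4a1, and it was -0.33 for Fosb, -0.32 for Egr3 and -0.46 for Fosl2. Without WT library 4 the median r over all pairs of members was 0.31. The members of the block thus kept r of 0.80 to 0.95 with Fos without it, while Fosb, Egr3 and Fosl2 had r below 0 with Fos. These 11 libraries still hold the split of Kdm6b-cKO libraries 2, 3 and 4 from libraries 0, 1 and 5. The 8 libraries over 1000 FPKM of 45S lack that split but include WT library 4. No r given here leaves out both, so whether the block holds without them was not tested.

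Measures of the libraries themselves moved with some members at P30. Of 60 relations of a member with depth, 45S ribosomal RNA or summed marker and heat shock levels, 1 passed for Pearson's r after adjustment: Egr2 with the heat shock sum (r = 0.76, rho = 0.84, adjusted permutation p = 0.0438 for r and 0.0852 for rho), with r = 0.76 without 2 libraries. Junb and Arc had r of -0.80 and -0.77 with 45S ribosomal RNA (rho -0.76 and -0.73), and r of 0.72 and 0.68 with depth (rho 0.68 and 0.60), with adjusted permutation p values of 0.366 for all 4 values of r. Fos had r of -0.55 with 45S, 0.41 with depth and 0.59 with the heat shock sum, with adjusted permutation p values of 0.366, 0.481 and 0.366.

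At P1 the covariation was lower once the shallow libraries were left out, and it was not tested against that at P30. The median r over 36 pairs was 0.49, against 0.0275 over all pairs of genes, and the median rho was 0.27. Pairs past an unadjusted p of 0.05 numbered 5, and none passed after adjustment. The median r was -0.092 within WT and 0.54 within Kdm6b-cKO, 0.37 within the 7 libraries without receptor signal, 0.25 without the 2 farthest libraries, and 0.20 without the 2 libraries under 500000 reads. Egr2 and Arc had the highest r, 0.82 (rho = 0.75, adjusted permutation p = 0.273), and Fos and Junb had r = 0.77 (rho = 0.69, adjusted permutation p = 0.273), which was 0.27 without the 2 farthest libraries, Kdm6b-cKO 0 and 5.

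The genes most like the members were then sought among non-members with a mean of at least 5 FPKM, by r with the mean of the centred members over 12 libraries. At P30, among 8941 genes, the 5 highest were Ccn1 (r = 0.95), Btg2 (r = 0.85), Ankrd33b (r = 0.85), Spag1 (r = 0.82) and Actb (r = 0.80). Ccn1, a growth factor-inducible gene of the matrix, ranged from 0.657 to 32.5 FPKM, and Btg2 from 2.86 to 29.1 FPKM. Both are on the list of other rapid response genes, as are Egr4, in place 9 (r = 0.79), and Gadd45b, in place 14 (r = 0.76). The heat shock genes Hspa8 and Dnajb1 were in places 15 and 18 (r = 0.75 and 0.74). At P1, among 9721 genes, the 5 highest were Lrrc20 (r = 0.97), Adat1 (r = 0.97), Marchf11 (r = 0.96), 9430083A17Rik (r = 0.95) and Mrtfb (r = 0.95). None is on the list of other rapid response genes, while Mrtfb is on that of upstream regulators. These correlations describe 12 libraries that differ in depth, and the points share that depth.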

How the data were processed

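RNA from sorted SUN1-GFP+ cortical nuclei was sequenced at both ages, with 6 libraries per genotype. The authors used HISAT2 for alignment to mm9. Deposited for each age were FPKM values per gene and library that the authors' Cuffdiff run had also scaled between libraries (versions not given in the sources used here). Further deposited tables hold the authors' own comparison (fold changes, test statistics, p and q values), and only gene positions were taken from them. Exon counts came from GENCODE gene models in mm9.

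At each age, limma 3.58.1 (R 4.3.3; two-sided, with an intensity trend) compared the genotypes on log2(FPKM + 0.1). Genes under a mean of 1 FPKM were left out, and p-values were adjusted by Benjamini-Hochberg over every tested gene. Fold changes are on this scale, which understates changes of low genes. A call required both an adjusted p under 0.05 and a fold over 2. Single members were also compared by exact permutation over 924 splits, with no adjustment. Correlations used 100000 permutations within genotype, with p-values adjusted over the pairs of an age, and 60 relations with technical measures at P30 and 54 at P1 were adjusted likewise. The fit and the correlation test were tested on simulated data. Figures and remaining steps used Python 3.11.15 (matplotlib 3.10.9, scipy 1.17.1, pandas 2.3.3, numpy 2.4.6). Effective depth assumes fragments of 200 bases, and read numbers are FPKM converted at that depth. For members with several low values at an age, the assumed length was first adjusted by a few percent to bring those values nearest to whole reads. After that step the low values of every member but Egr2 at P1 were within 0.1 of a whole read. This closeness was partly fitted and does not test the read numbers. For Egr2 the read numbers are approximate. Listings at 0 at P30 may be failed estimates, since Ppia, a gene of every cell, is listed at 0 in most P30 libraries. Of 10 widely expressed genes checked, 2 were at 0 in at least 1 P30 library and none in any P1 library. Whether listings at 0 at P1 are failed estimates was not tested.

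The members and gene lists were chosen with earlier results of these data known. The rule for naming covers all 10 members, up to 4 genes per age with the smallest p from each list of other rapid response genes, delayed activity-regulated genes, upstream regulators and heat shock genes, and the 5 non-members most like the members. Cyr61, Mkl1 and Mkl2 were matched to Ccn1, Mrtfa and Mrtfb by RefSeq synonyms. Marker lists covered glutamatergic and GABAergic neurons, astrocytes, the oligodendrocyte lineage, microglia, and endothelial and mural cells. Alternatives covered quantile normalization and median-of-ratios scaling, pseudocounts of 0.01 and 1, a filter at 5 FPKM or none, robust empirical Bayes, and limma with no trend. They also covered weights by depth or estimated per library, leaving out each library, and groups of libraries as a term or singly. These groups were set from the values: more than 100 olfactory receptor genes above 0 at P1, and over 1000 FPKM of 45S ribosomal RNA at P30. They are called batches below, although no label names a batch. Leaving out both P1 libraries under 500000 reads was added after seeing the data. Promoters are RefSeq windows of GRCm38.p6, whose coordinates are separate from those of mm9.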

Additional observations from a re-analysis of the deposited data

Results flagged for a closer look

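Single libraries stood apart from the other 5 of their group for several members. The measure is the gap from the highest or lowest library to its nearest neighbour as a share of the group's whole range on the log2(FPKM + 0.1) scale, and shares above Dixon's critical value for 6 libraries were noted. Of 40 groups of 6 libraries (10 members, 2 genotypes, 2 ages), 8 were noted. Chance alone gives about 1 in 20 groups if libraries and genes are independent, which members measured in the same library are not.

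WT library 4 at P30 accounted for 5 of the 8, as the lowest library each time: Fos (share 0.829), Egr2 (share 0.831), Fosb (share 0.679), Egr1 (share 0.637) and Arc (share 0.633). Fos there was 3.84 FPKM against 37.1 FPKM in the nearest WT library, Egr1 6.18 against 33.8 FPKM, Arc 19.8 against 71.8 FPKM, Fosb 0.0698 against 1.85 FPKM, and Egr2 was listed at 0 against 2.27 FPKM. Kdm6b-cKO library 2 at P30 was the lowest for Jun, at 5.27 FPKM against 13.6 FPKM (share 0.752). At P1, Fos in Kdm6b-cKO library 0 was listed at 0 against 4.60 FPKM in the nearest library (share 0.871), at a depth where 3 reads would have been as much. Fosl2 in Kdm6b-cKO library 5 was the highest of its group, at 11.0 against 4.42 FPKM (share 0.706), from 12 reads.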

How the results depend on the processing

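Weights by effective depth called 2 members lower at P1, and at P30 the batch term and the larger batch alone each called 2 lower; the cause was not tested. The other alternatives called no member. Leaving out 1 library left the counts of members called lower, higher or with an interaction at 0. The median pairwise r moved at P1 to 0.084 under quantile normalization and 0.20 without the 2 shallow libraries, with a range of 0.33 to 0.60 when 1 library was left out; at P30 that range was 0.31 (without WT library 4) to 0.58.

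No called value turned its sign, since none was called, but small fold changes did. At P1, Fosl2 was 0.19 under quantile normalization and 0.36 with the batch term, and Jun 0.061 with library weights; with 1 library left out, Fosl2 ran from -0.33 to 0.040 and Jun from -0.34 to 0.18. At P30, the batch term and the larger batch alone gave -0.38 and -0.89 for Fos and -0.27 and -0.64 for Egr1, and a pseudocount of 1 gave -0.0096 for Egr1. Library weights gave 0.52 for Junb, 0.23 for Nr4a1 and 0.76 for Arc, and weights by depth 0.016 for Arc. With 1 library left out, Fos ran from -0.44 to 0.40, Egr1 from -0.48 to 0.28 and Jun from -0.29 to 0.068. The interaction of Jun was 0.11 under quantile normalization, 0.16 with depth weights, 0.10 with the batch term and 0.027 without the shallow libraries, and ran from -0.36 to 0.20 with 1 library left out; that of Junb was -0.066 with the batch term.

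In the exact test at P1, the 7 libraries without receptor signal gave p = 0.0952 for Egr1 and 0.190 for Nr4a1. No paired analysis was possible because the numbers on the table columns are not the replicate numbers of the labels. At P1 several values rest on under 10 reads, and differences of low members were not detectable there.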
